A study of Mus musculus with 14 samples.

Results

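The comparison described here rests on 6 of the 14 deposited arrays, namely 3 arrays of mammary gland from mice given 17beta-estradiol (E2) together with fulvestrant, raloxifene or tamoxifen, and 3 arrays from mice given the same compound without E2. They were chosen by treatment label alone and paired by compound, which gives 3 pairs and a with-minus-without-E2 difference under each compound, and no vehicle array enters. The mice were C57BL/6 females, aged 11 to 12 weeks on arrival and kept for 1 week before use. All had been ovariectomised 7 days before treatment, and glands were taken 3 h after it. Each group held 8 mice whose glands were pooled, so an array measures a pool and the spread between animals was not measured. The other groups, used as background, were vehicle, E2 alone, acolbifene (EM-652.HCl) and E2+acolbifene, with 2 arrays each, and nothing in the labels says whether such a couple of arrays came from separate pools. The 10 groups therefore share ovariectomy, strain and the 3 h time point, and the sources used here give no dose for the 4 blockers, so differences between compounds are differences at unstated doses. Levels are log2 values, in which a difference of 1 is a doubling.

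E2 acts mainly through estrogen receptor alpha, a nuclear receptor that binds DNA or other transcription factors and recruits coactivators. Tamoxifen, raloxifene and acolbifene are selective estrogen receptor modulators, which fill the hormone pocket and can act as antagonist or partial agonist depending on the tissue, whereas fulvestrant is a pure antagonist that also speeds degradation of the receptor. In the mammary gland the receptor is made by a subset of luminal epithelial cells and by stromal cells, and the progesterone receptor gene is its best known target. The gland of a mouse is mostly fat, with ducts, vessels, immune cells and the overlying skin and muscle close by.

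The raw files of the 6 arrays share one code, which E2 array 1 also carries, while vehicle, acolbifene, E2+acolbifene and E2 array 2 carry another. The raw-file name of the raloxifene array shares its middle part with those of 2 other arrays, both labelled E2+acolbifene. Over probe sets, after each code's mean was subtracted, the raloxifene array correlated with those 2 arrays at r = 0.0638 and 0.0468, and its highest correlation was 0.199, with the fulvestrant array. The labels were kept, and the number of probe sets that passed over the pairs is also given without the raloxifene pair. Other counts that rest on that pair, such as those within gene lists and those shared with acolbifene, are not given without it. Array medians lay between 7.16 and 7.23 over all 14 arrays. The luminal list (Krt8, Krt18, Epcam and others) averaged 9.53 to 9.66 over the 6 arrays and the adipocyte list (Adipoq, Plin1 and others) 12.37 to 12.54, against 8.03 to 8.06 for all genes, so markers of the labelled tissue were present in each array.

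Promoter sequence was examined for the 28 leading genes, the 14 higher and 14 lower with the largest smallest difference among the 3 pairs, which are described below. RefSeq promoter windows of build GRCm38.p6 were matched by symbol, and windows on a single chromosome were left out of the matched ones. This left 19 of the genes, and the 250 bases before the start were read on both strands in 24 windows. The shares over all windows below include that chromosome. The palindromic estrogen response element (GGTCA, 3 free bases, then TGACC) occurred in 0 of the 24 windows, and in 0.0639% of 32851 windows of this length. Its single arm, AGGTCA, occurred in 4 windows, of Jdp2, Stat5a and Sox4, and in 14% of all windows. The AP-1 motif TGANTCA, bound by Fos and Jun dimers, occurred in 1 window, of F3, and in 6.75% of all. The glucocorticoid element (AGAACA, 3 free bases, then TGTTCT) was found in 0 of 24 and in 0.00913% of all windows. A match describes letters only and an empty window says nothing about the receptor. A window is shown for each of F3, Stat5a and Pgr, on the plus strand from 5′ to 3′, because they belong to genes whose E2 difference passed the test and stand for a promoter with AP-1 matches, one with the single arm and one with neither, with matches in capitals.
F3, chr3:121723287-121723536, AP-1 matches starting 146 and 135 bases before the start: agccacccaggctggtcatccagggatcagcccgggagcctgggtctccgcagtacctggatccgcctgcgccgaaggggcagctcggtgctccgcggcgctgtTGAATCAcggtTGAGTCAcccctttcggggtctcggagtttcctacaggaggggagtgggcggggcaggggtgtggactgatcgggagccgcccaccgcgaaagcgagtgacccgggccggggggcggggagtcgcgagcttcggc
Stat5a, chr11:100859406-100859655, AGGTCA match starting 46 bases before the start: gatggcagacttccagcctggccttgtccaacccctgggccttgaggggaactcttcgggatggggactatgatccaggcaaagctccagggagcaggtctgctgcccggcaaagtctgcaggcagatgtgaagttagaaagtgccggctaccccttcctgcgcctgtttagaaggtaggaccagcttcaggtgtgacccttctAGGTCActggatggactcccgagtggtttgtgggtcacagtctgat
Pgr, chr9:8899583-8899832, no match: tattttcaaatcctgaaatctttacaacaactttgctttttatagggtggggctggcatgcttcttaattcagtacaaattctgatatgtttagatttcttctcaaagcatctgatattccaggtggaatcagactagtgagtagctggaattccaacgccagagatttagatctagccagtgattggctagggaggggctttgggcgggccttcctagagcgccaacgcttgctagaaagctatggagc

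With a blocker present, E2 still raised the keratin gene Krt4, the acyl-CoA thioesterase gene Acot1, the tissue factor gene F3, the water channel gene Aqp5 and the progesterone receptor gene Pgr, and lowered the lipid phosphatase gene Mtmr7, Lratd1, the protease gene Tmprss2, the growth factor receptor gene Fgfr2 and Foxa1, a pioneer factor through which the receptor reaches closed chromatin. Over the 3 pairs 86 of 45037 probe sets passed (limma with compound as a block, Benjamini-Hochberg adjusted p under 0.05), or 0.191%, of which 51 were higher with E2 (0.113%) and 35 lower (0.0777%). They named 59 genes, and 13 probe sets had no single gene name. All 86 had differences of one direction under all 3 compounds, against 11.4% of all genes higher and 10.3% lower in all 3. The test that chose the 86 used these same differences, so their shared direction is no separate evidence. The raloxifene difference was the smallest of the 3 in 69 of them, while the fulvestrant difference was the largest in 45 and the tamoxifen difference in 34. Over all probe sets the SD of the differences was also smallest under raloxifene (0.16, against 0.19 under fulvestrant and 0.20 under tamoxifen). Leaving the raloxifene pair out gave 413 called probe sets, which held all 86, and leaving the tamoxifen pair out gave 49, of which 31 were among the 86. Repeating the quantile normalisation over the 6 arrays left 16, with all 86 probe sets in the same direction. For a single gene the exact two-sided sign-flip permutation test of 3 differences cannot go below p = 0.25, so the calls rest on the spread that the fit shares across probe sets. Where the 3 compounds differed widely the fit also drew the error down, and for Krt4 the SD of the 3 differences was 1.11 while the SE of their mean was 0.26.

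**Figure D1:**
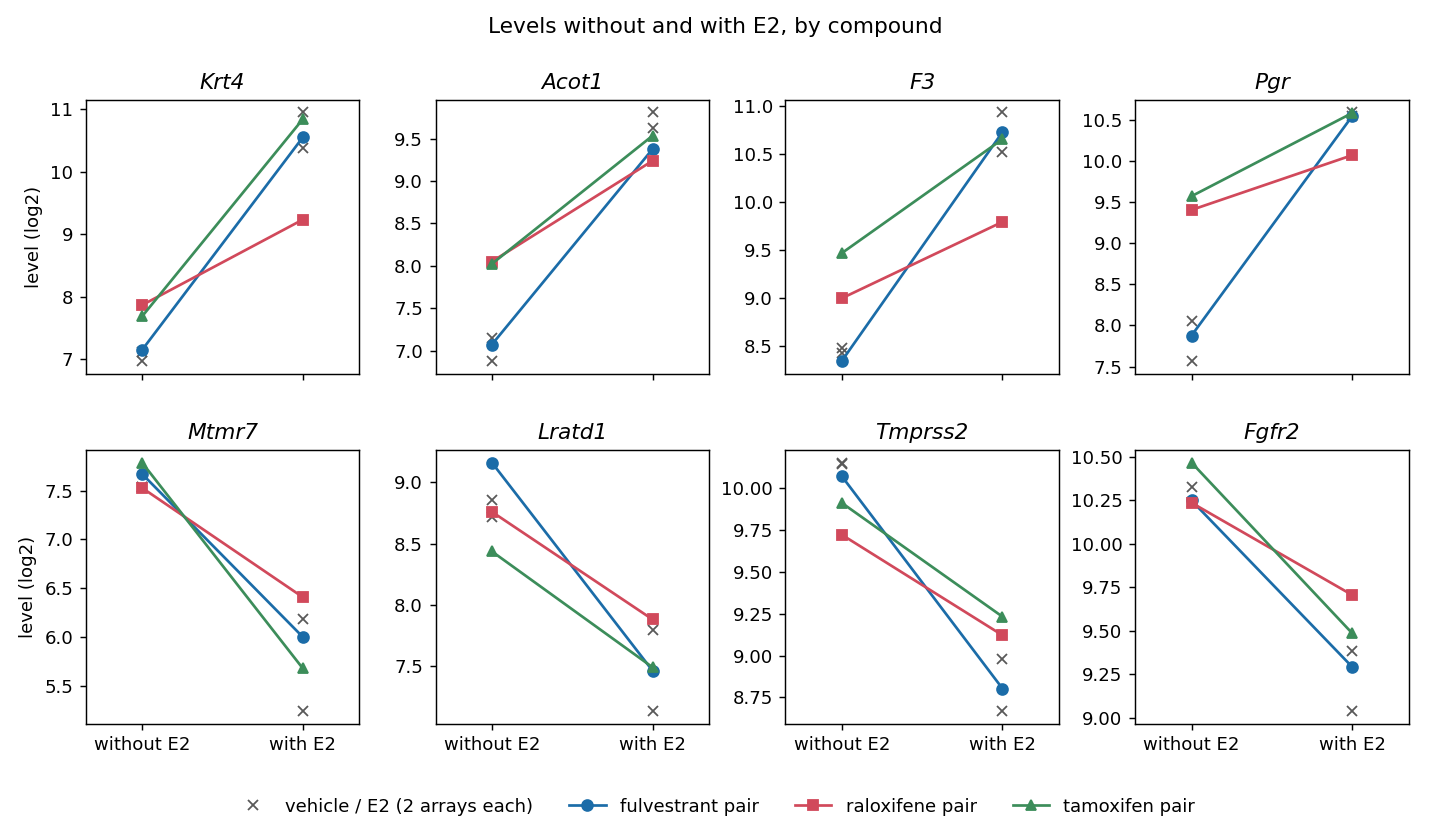
Level (log2, vertical axes) of 8 genes without and with E2 (horizontal axes), 1 array per point, lines joining the 2 arrays of a compound and crosses showing the 2 vehicle and 2 E2 arrays. Lines run up for Krt4, Acot1, F3 and Pgr and down for Mtmr7, Lratd1, Tmprss2 and Fgfr2 under each compound, and for Pgr the raloxifene and tamoxifen arrays without E2, at 9.41 and 9.57, lie above the fulvestrant array at 7.88.

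The receptors and their established targets come first. Esr1, which encodes estrogen receptor alpha, stood between 10.48 and 10.61 on its brightest probe set in the 6 arrays, with differences of -0.03 under fulvestrant, -0.04 under raloxifene and -0.10 under tamoxifen. Esr2, which encodes estrogen receptor beta, lay between 6.33 and 6.77, near the level called dim here (6.66, the 40th percentile of the mean over the 6 arrays). Neither passed the test. Pgr read 7.88 with fulvestrant and 10.55 with E2+fulvestrant, 9.41 and 10.07 in the raloxifene pair, and 9.57 and 10.59 in the tamoxifen pair. The groups did not overlap. The arrays without E2 lay farther apart than those with E2, and the fulvestrant array lay between the vehicle arrays (8.05 and 7.57). The mean difference was 1.45 ± 1.07 (SD, n = 3 pairs), a 2.73-fold rise with a limma adjusted p of 0.0433, lost in 4 of the alternatives tried. Of the other Pgr probe sets, both dim, neither passed (mean differences 0.43 and 0.23).

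Aqp5 read 8.84 and 10.47 without and with E2 in the fulvestrant pair, 9.12 and 9.86 in the raloxifene pair, and 9.16 and 10.73 in the tamoxifen pair. Its mean difference was 1.31 ± 0.49 (SD, n = 3 pairs; limma adjusted p = 0.00292), and the differences came to 92%, 42% and 89% of that between E2 alone and vehicle under fulvestrant, raloxifene and tamoxifen. Pgr and Aqp5 were the 2 called genes among 27 measured estrogen receptor targets, against 0.165% of genes called higher and 0.0934% called lower when each gene is represented by its brightest probe set. The members of that list were chosen with earlier results of these data known, so the count is a description only. The median difference of these targets over the 3 pairs was -0.06 and that of all genes 0.00. Greb1, an estrogen-induced coregulator, was not called on its brightest probe set (0.09), but on a dim probe set it read 5.55 and 7.00 with fulvestrant, 5.49 and 5.92 with raloxifene, and 5.37 and 7.32 with tamoxifen (mean 1.28, limma adjusted p = 0.0173). Classical targets such as Ccnd1, Myc, Igf1, Tff1 and Igfbp4 had mean differences between -0.11 and 0.11 and did not pass. Wnt4, a paracrine mediator of mammary branching, had differences of -0.59, -0.01 and -0.82 in the order fulvestrant, raloxifene, tamoxifen, and did not pass either.

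The largest rise was that of Krt4, a keratin of stratified epithelia, which read 7.15 and 10.55 in the fulvestrant pair, 7.87 and 9.24 in the raloxifene pair, and 7.69 and 10.84 in the tamoxifen pair. The lowest array with E2 thus lay above the highest array without it, and the E2+tamoxifen and E2+fulvestrant arrays fell within the range of the arrays with E2 alone (10.95 and 10.38). Its mean difference was 2.64 ± 1.11 (SD, n = 3 pairs), a 6.25-fold rise with a limma adjusted p of 0.00156. In a fit of all 14 arrays Krt4 also passed under each compound alone, with limma adjusted p-values of 4.16e-05, 0.0153 and 8.3e-05 for fulvestrant, raloxifene and tamoxifen. That fit includes the raw-file code, in which the E2-alone arrays differ. Its spread therefore comes from the vehicle, acolbifene and E2+acolbifene arrays. A second Krt4 probe set also passed over the 3 pairs (mean difference 2.04). In the 14-array fit it passed under fulvestrant and tamoxifen but not under raloxifene, where its difference was 1.24.

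Acot1 read 7.07 and 9.38 in the fulvestrant pair, 8.05 and 9.24 in the raloxifene pair, and 8.02 and 9.53 in the tamoxifen pair (mean 1.67 ± 0.57 SD, n = 3 pairs; limma adjusted p = 0.000837). F3, whose promoter holds the AP-1 matches printed above and whose product starts coagulation, read 8.35 and 10.73, 9.0 and 9.79, and 9.47 and 10.65 in the same order (mean 1.45 ± 0.83 SD, n = 3 pairs; limma adjusted p = 0.0116). For both genes the arrays with E2 lay above those without, and the array without E2 was lowest under fulvestrant.

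Other leading genes rose by smaller amounts. Errfi1, which encodes an inhibitor of the EGF receptor family, read 9.61 and 10.77 with fulvestrant, 9.75 and 10.50 with raloxifene, and 10.06 and 10.72 with tamoxifen (mean 0.86, limma adjusted p = 0.00613). Jdp2, a basic leucine zipper repressor that binds AP-1 sites, rose by 1.06, 0.65 and 0.84 in the order fulvestrant, raloxifene, tamoxifen (mean 0.85, limma adjusted p = 0.00409). Stat5a, the transcription factor that carries the prolactin signal, read 10.31 and 11.22, 10.40 and 10.91, and 10.33 and 10.94 (mean 0.68, limma adjusted p = 0.0125), and a second probe set also passed (0.73). Among the remaining genes in the first 14 that rose, ranked by their smallest difference, were the kinase gene Cdk18 (0.96), the ubiquitin ligase gene Rnf208 (0.79), the SUMO-pathway coregulator gene Zmiz1 (0.69), the secreted protease gene Adamts1 (0.64), the prominin gene Prom2 (0.97) and Mmd2 (1.07), with mean differences given in brackets. Other Zmiz1 probe sets had mean differences between 0.11 and 0.24 and did not pass. All 14 leading rises passed on the probe set that ranked them, and none had overlapping groups. The rule that ranked them used these differences, as it did for the genes that fell. Among all probe sets 5.12% had all arrays with E2 above all arrays without, and 4.8% all below.

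Fgfr3 also passed, at 0.71, and with Errfi1 and Fgfr2 made 2 higher and 1 lower among 21 measured genes of EGF receptor and FGF signalling. Over all genes 0.165% were called higher and 0.0934% lower. Further called genes were Ccn1, a secreted matricellular protein (0.72), Plod2, which hydroxylates collagen lysines (0.62), the transcription factor gene Tfcp2l1 (0.83), the iodide transporter gene Slc5a5 (0.78) and the lipoxygenase gene Alox15 (0.79). Ccn1 was the 1 called gene among 31 measured immediate-early genes, against the 0.165% of all genes called higher. In 14 of the 31 all 3 differences were above 0, against 11.4% of all genes. Fos had differences of 0.27, 0.24 and 0.27, Egr1 0.36, 0.24 and 0.43, and Nr4a1 0.34, 0.43 and 0.40 in the order fulvestrant, raloxifene, tamoxifen. Those 3 genes did not pass, with limma adjusted p-values between 0.142 and 0.669.

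Mtmr7 had the largest mean fall of the leading genes on the probe set that ranked it, which read 7.67 and 6.00 in the fulvestrant pair, 7.53 and 6.41 in the raloxifene pair, and 7.79 and 5.68 in the tamoxifen pair. Every array with E2 lay below every array without, and the mean difference was -1.64 ± 0.50 (SD, n = 3 pairs; limma adjusted p = 0.000586). A second, brighter Mtmr7 probe set had a mean difference of -0.55 and did not pass (limma adjusted p = 0.0584). Lratd1 fell by 1.17 (9.16 and 7.46, 8.76 and 7.88, 8.44 and 7.49; limma adjusted p = 0.00409).

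Among transcription factors of luminal cells, Foxa1 read 10.58 and 9.23 with fulvestrant, 10.37 and 10.03 with raloxifene, and 10.26 and 8.80 with tamoxifen, a mean difference of -1.05 ± 0.62 (SD, n = 3 pairs; limma adjusted p = 0.0217). The fulvestrant and tamoxifen differences, -1.35 and -1.47, were near that between E2 alone and vehicle (-1.52), and the raloxifene difference was -0.34. Gata3, the luminal lineage factor, had the most even differences of the 28 leading genes, -0.47, -0.46 and -0.43, but these were small and did not pass (limma adjusted p = 0.067), and its groups overlapped. Sox4, another developmental transcription factor, fell by 0.64 on 1 probe set (limma adjusted p = 0.0244). Its other 7 probe sets did not pass, the brightest with a mean difference of -0.27 and 2 of them above 0 (0.33 and 0.42). Of 15 measured luminal genes Prom1 was called higher (0.60) and Foxa1 lower, against 0.165% and 0.0934% of all genes. The keratins Krt8, Krt18 and Krt19 had mean differences between -0.28 and -0.23 that did not pass.

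Tmprss2, a membrane serine protease, read 10.07 and 8.80, 9.72 and 9.12, and 9.91 and 9.23 in the order fulvestrant, raloxifene, tamoxifen (mean -0.85, limma adjusted p = 0.0116), and 2 further probe sets passed. Fgfr2, a receptor for epithelial growth signals from stroma, read 10.25 and 9.29, 10.24 and 9.71, and 10.47 and 9.49 (mean -0.82, limma adjusted p = 0.00639). For both genes the lowest array without E2 lay above the highest array with E2. The arginine-handling genes Slc7a2, a cationic amino acid transporter, and Arg2, the mitochondrial arginase, fell by 0.92 and 0.65. Other probe sets of Slc7a2 (mean differences -0.38, -0.22 and -0.40) and of Arg2 (-0.39) did not pass. Smim3, Tlcd4 and Enho, which encodes the secreted peptide adropin, fell by 0.91, 0.86 and 0.66.

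The leading falls also held Ighm, Ighg3 and Actn3, genes of cells other than epithelium or fat. Ighm, the IgM heavy chain, fell by 1.07 over the 3 pairs (limma adjusted p = 0.00639), and its difference between E2 alone and vehicle was -0.01. Its brightest probe set did not pass, with differences of -0.17, 0.03 and -0.90 under fulvestrant, raloxifene and tamoxifen. Ighg3, an IgG heavy chain, fell by 0.57. The lymphocyte list, read on the brightest probe set of each gene, had 0 called genes among 14 measured and medians of -0.15, 0.18 and -0.07 under fulvestrant, raloxifene and tamoxifen. Actn3, a structural protein of fast muscle fibres, read 9.81 and 9.35, 8.89 and 7.78, and 9.04 and 8.42 (mean -0.73, limma adjusted p = 0.0224), with overlapping groups.

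Actn3 belonged to a broader fall of skeletal muscle genes, of which 6 of 19 were called lower over the 3 pairs (Actn3, Ckm, Acta1, Ttn, Pvalb and Atp2a1) and 13 of 19 were lower in all 3, against 0.0934% of all genes called lower and 10.3% lower in all 3. Their mean level read 9.70 and 8.65 without and with E2 in the fulvestrant pair, 8.57 and 7.69 in the raloxifene pair, and 8.79 and 8.66 in the tamoxifen pair. The muscle creatine kinase gene Ckm read 11.50 and 10.65, 10.44 and 9.24, and 10.45 and 10.09 in the same order. Ckm stood at 9.75 and 11.18 in the 2 E2 arrays, while the 2 arrays of each other replicated group lay close together (10.78 and 10.78 with vehicle, 10.57 and 10.58 with acolbifene, 11.32 and 11.18 with E2+acolbifene). Under acolbifene the muscle median was higher with E2 by 0.82. In bulk tissue fewer muscle fibres in a pool and less RNA per fibre cannot be told apart, and the part of muscle content in the called falls was not tested. Leaving out the muscle, keratinocyte and lymphocyte markers and all immunoglobulin genes left 76 of the 86 probe sets, 51 higher and 25 lower.

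**Figure D2:**
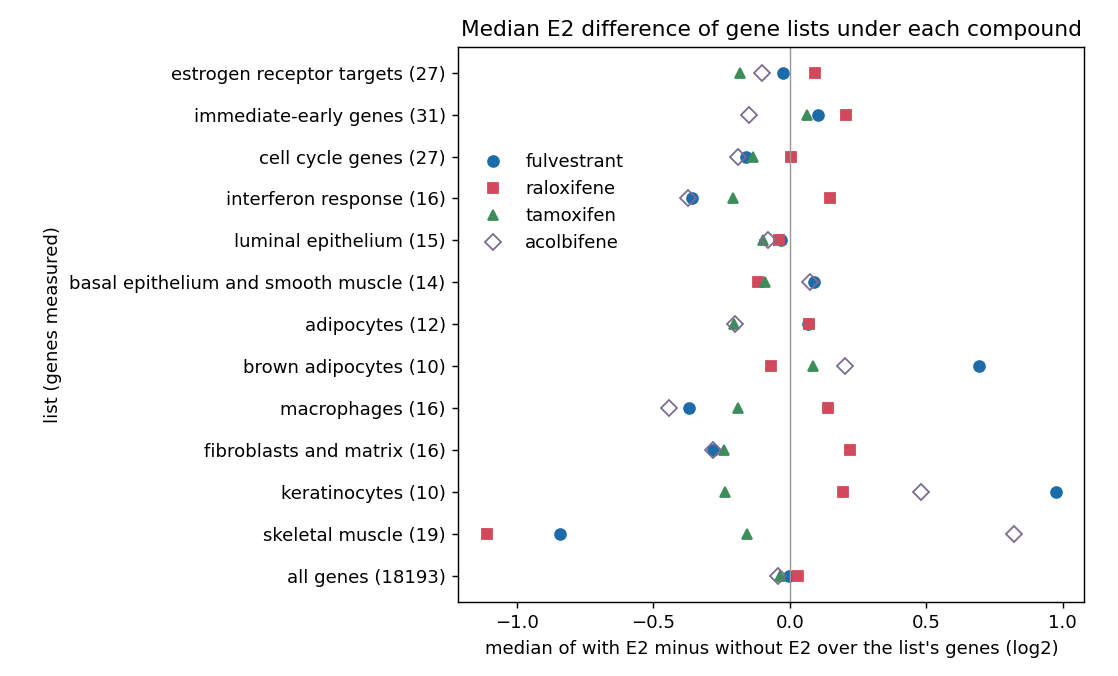
Median over the genes of each list of the difference with E2 minus without E2 (log2, horizontal axis), by compound; the number of genes measured stands beside each list (vertical axis). Muscle medians run from -1.11 under raloxifene to 0.82 under acolbifene and keratinocyte medians from -0.24 under tamoxifen to 0.98 under fulvestrant, while estrogen receptor targets and all genes stay near 0.

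How much of the ordinary estradiol response remained under each compound was read from 523 probe sets that the vehicle and E2 arrays alone had chosen (limma adjusted p under 0.05 and at least 1.5-fold), 363 higher and 160 lower with E2. None of those 4 arrays enters the 3 pairs. The slope of a pair's difference on the difference between E2 and vehicle, through 0, was 45.5% under fulvestrant, 40.9% under tamoxifen and 19.8% under raloxifene, and 16.8% under acolbifene. The probe sets were chosen for a large E2 minus vehicle difference, so each percentage is relative to differences selected to be large. The same direction as in E2 alone was seen in 81.3%, 78.8% and 73.0% of responders under fulvestrant, tamoxifen and raloxifene, against 56.3%, 51.9% and 50.9% of all probe sets. Over the 3 pairs 65 responders were called in the same direction, which is 12.4% of the responders and 75.6% of the called probe sets.

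Muscle markers stood among the responders. Of 13 responders that went the opposite way by 1.5-fold or more under fulvestrant, 6 probe sets of 5 genes were skeletal muscle markers, and Myh1, a fast myosin heavy chain, read 9.15 without and 5.94 with E2 there. With muscle, keratinocyte, lymphocyte and immunoglobulin markers left out, 516 responders remained and the slopes were 55.5%, 42.8% and 22.0% under fulvestrant, tamoxifen and raloxifene. E2 array 1 bore on the order of the upper pair of values. When responders were chosen without it, the slopes were 34.8% under fulvestrant and 38.9% under tamoxifen, with raloxifene lowest at 16.3%. E2 array 1 carries the code of the 6 arrays, and its mean muscle level was 8.45, against 9.59 in E2 array 2. The part of code or muscle content in this change of order was not tested.

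Raloxifene gave the smallest difference in the E2 direction for 296 of the 523 responders and fulvestrant the largest for 266. The same counts over all probe sets were not made. Raloxifene differences were also the least spread over all probe sets (SD 0.16, against 0.19 under fulvestrant and 0.20 under tamoxifen). The small raloxifene differences had a part on either side of the pair. Among the 363 responders that E2 raised, the raloxifene array without E2 lay above the fulvestrant array by a median of 0.10, and the E2+raloxifene array lay below E2+fulvestrant by a median of 0.20. For tamoxifen these medians were 0.09 above and 0.09 below. Among the 160 responders that E2 lowered, tamoxifen had the largest slope, 47.5%, against 32.9% for fulvestrant and 27.6% for raloxifene. Over all probe sets the tamoxifen difference fell with level (r = -0.28), and the part of this in its slope was not tested. Differences between the slopes of the compounds were not tested, since each compound has 1 array with and 1 without E2.

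**Figure D3:**
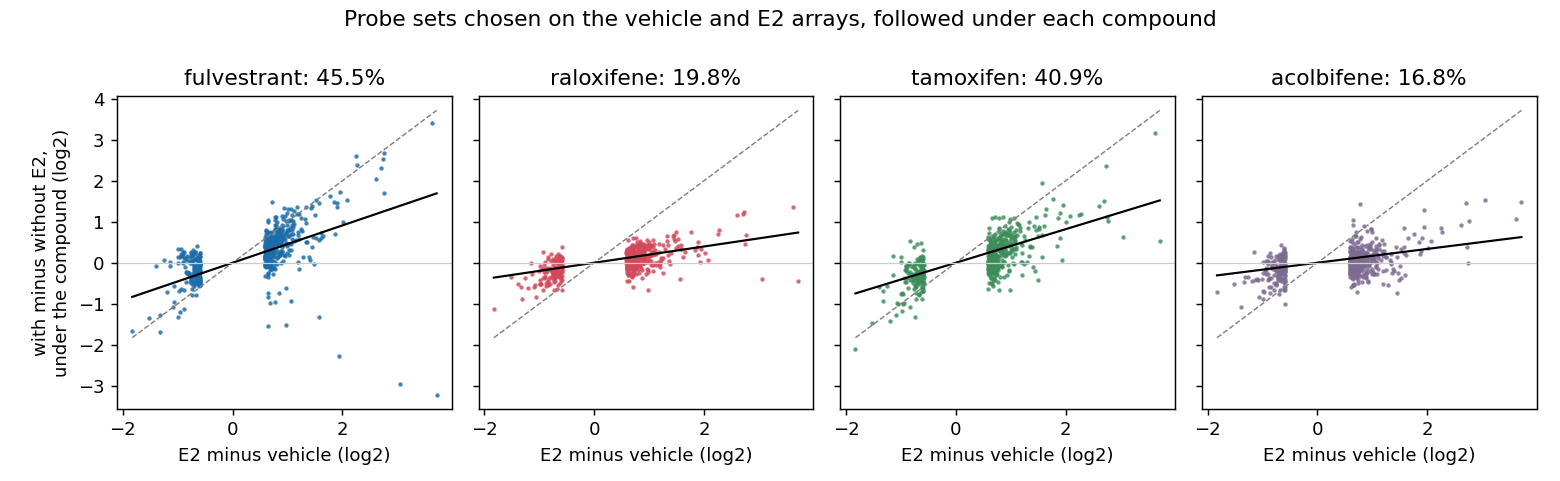
Each point is one of the 523 probe sets chosen on the vehicle and E2 arrays, with its E2 minus vehicle difference (log2, horizontal axis) and its difference with minus without E2 under a compound (log2, vertical axis). The dashed line is equality and the solid line the slope through 0 printed above each panel, 45.5%, 19.8%, 40.9% and 16.8% from left to right, and the points below -2 under fulvestrant include Myh1 and Myh2.

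Followed one by one, the 12 genes with the largest rises and the 12 with the largest falls for E2 against vehicle were read again under the blockers. Of the 12 rises 7 were called over the 3 pairs (Krt4, Pgr, Mmd2, Acot1, F3, Ccn1 and Aqp5), against 0.113% of all probe sets. In all 3 pairs 10 of 12 were higher, against 11.4% of all genes, and the exceptions were the muscle genes Myh1 and Myh2. Mfsd4a, a transporter-like gene, had differences of 1.54 and 1.14 under fulvestrant and tamoxifen but 0.06 under raloxifene on the probe set that ranked it, and a second probe set passed (1.16). Of the 12 falls 7 were called (Mtmr7, Foxa1, Tmprss2, Lratd1, Slc7a2, Fgfr2 and Smim3), against 0.0777% of all probe sets called lower. The clock output gene Dbp, also among the 12 falls, had differences of 0.15, -0.09 and 0.02 under fulvestrant, raloxifene and tamoxifen. Prol1, Dixdc1, Scd2 and Acss2 had mean differences between -0.32 and 0.06. In each, the arrays without E2 in the 3 pairs already lay below both vehicle arrays. For Scd2 the differences varied by compound (0.00, -0.20 and -0.76 in the order fulvestrant, raloxifene, tamoxifen). The same held for Acss2 (0.34, -0.52 and 0.14). The acolbifene arrays, which carry the same raw-file code as the vehicle arrays, read 4.51 and 4.56 for Prol1, against 5.44 and 5.80 with vehicle. For Acss2 they read 8.30 and 8.38, against 8.35 and 8.36.

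Which compound departed was asked in the 14-array fit. The E2-alone arrays, which lay apart for muscle genes such as Ckm, add nothing to the spread of that fit. Under fulvestrant alone 173 probe sets passed (0.384%), 100 higher and 73 lower, under tamoxifen 81 (0.18%), 46 higher and 35 lower, and under raloxifene 15 (0.0333%), 3 higher and 12 lower. Of the 15 under raloxifene 11 were probe sets of 10 skeletal muscle genes and all 11 were lower. The others were Krt4, Krtap8-1 (a hair keratin-associated protein gene) and a probe set of several symbols, which were higher, and Mybpc2, a fast muscle gene outside the list, which was lower. Of the 173 under fulvestrant 14 were muscle probe sets, all lower, and 7 keratinocyte probe sets, all higher. Of the 81 under tamoxifen 0 were muscle and 3 were keratinocyte probe sets, all lower. Called or not, 88 probe sets differed by 1.5-fold or more under raloxifene, 478 under fulvestrant and 503 under tamoxifen.

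A departure was the difference under one compound minus the mean of those under the remaining compounds, and it passed for 14 probe sets for fulvestrant (0.0311%), 10 for tamoxifen (0.0222%) and 1 for raloxifene (0.00222%). The 1 was Krt4, whose raloxifene difference of 1.37 was lower by 1.91 than the mean of 3.40 and 3.16 (limma adjusted p = 0.0496). The second Krt4 probe set, with a raloxifene departure of -1.21, did not pass. Without the raw-file code in the fit the count of raloxifene departures was 0, and without dim probe sets it was 4. With an intensity trend the departures numbered 255 for fulvestrant, 444 for tamoxifen and 627 for raloxifene, so the order of the compounds by this count turned. Pgr (-1.18), F3 (-0.99), Aqp5 (-0.85) and Acot1 (-0.72) also had negative raloxifene departures, which did not pass (limma adjusted p-values of 0.399, 0.291, 0.291 and 0.488). The 3 departures of a gene sum to 0 and are not independent.

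Genes named among the departures of fulvestrant and tamoxifen, up to 5 in each direction and bright enough to be ranked, included epidermal genes and a muscle myosin gene. Krt10, a keratin of the upper epidermis, read 7.91 and 9.29 with fulvestrant, 8.04 and 8.33 with raloxifene, and 8.69 and 7.49 with tamoxifen. E2 arrays were thus high under fulvestrant and low under tamoxifen, and Krt77 and Krtdap, also of the epidermis, ran the same way (1.53, 0.06 and -1.29, and 1.00, 0.18 and -1.28). The 10 keratinocyte markers had mean levels of 6.55 and 7.42 without and with E2 under fulvestrant, 6.71 and 6.88 under raloxifene, and 6.98 and 6.54 under tamoxifen, and 0 of the 10 were called over the 3 pairs. In the tamoxifen pair, where their mean was lower with E2, Krt4 was higher by 3.16. The part of skin in these departures was not tested.

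Myh1 departed downward under fulvestrant (-3.26) and upward under tamoxifen (2.36), with muscle mean levels as given above. The matrix and macrophage genes Cthrc1, Slfn4 and Mmp12 were low with E2+fulvestrant (8.99, 9.35 and 7.85) and high with fulvestrant alone (10.61, 10.57 and 9.13). Under acolbifene Cthrc1, Slfn4 and Mmp12 were also lower with E2 (-0.44, -1.54 and -0.47), while Myh1 was higher (1.49). The 16 macrophage markers were likewise lower with E2 under fulvestrant, at 10.95 and 10.63 without and with it, against 10.84 and 10.99 in the raloxifene pair and 10.77 and 10.55 in the tamoxifen pair, and their part in those departures was not tested. Krtap8-1 had differences of 1.39 and 1.71 under fulvestrant and raloxifene and -0.57 under tamoxifen. The immunoglobulin light chain gene Igkv15-103 was high in the tamoxifen array alone, at 9.14, and between 7.64 and 8.22 in the other 5.

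**Figure D4:**
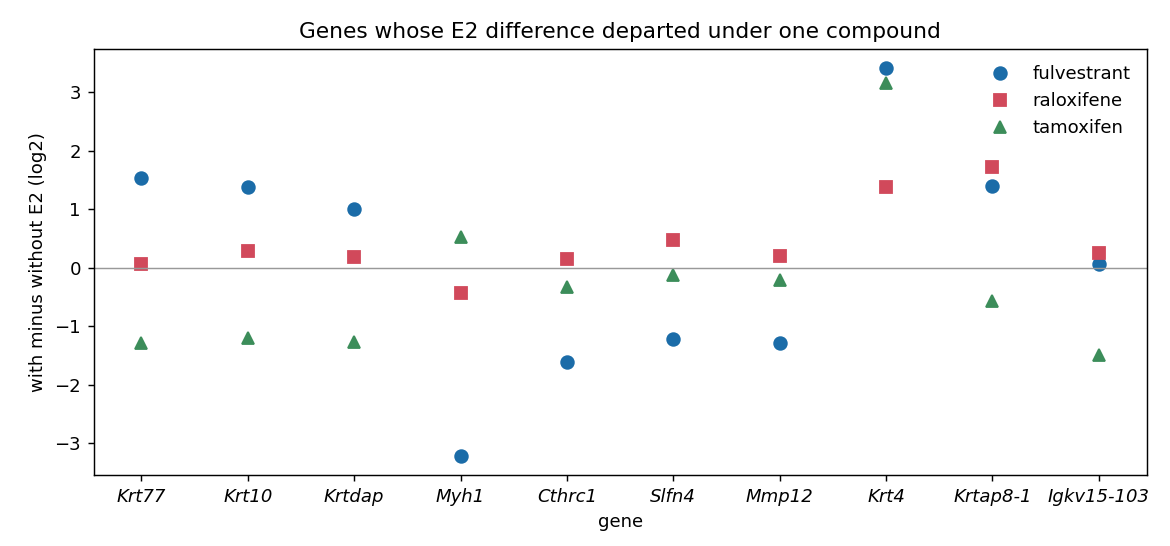
Difference with E2 minus without E2 (log2, vertical axis) under fulvestrant, raloxifene and tamoxifen for 10 of the genes whose departure under a compound passed the test, chosen by size and brightness (horizontal axis), 1 array against 1 for each point. Fulvestrant and tamoxifen points of Krt77, Krt10 and Krtdap lie on opposite sides of 0, and Myh1 reaches -3.22 under fulvestrant.

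The E2+acolbifene and acolbifene arrays share no array with the 3 pairs and give the same measure under the fourth blocker, with 2 arrays against 2. There 3.52% of probe sets were called higher with E2 and 5.67% lower (limma on 8 arrays, adjusted p under 0.05). These 4142 calls became 130 without acolbifene array 1, 969 without acolbifene array 2, 437 without E2+acolbifene array 1 and 38 without E2+acolbifene array 2, so the counts called under acolbifene below rest on all 4 arrays. In value, 48.1% of all probe sets were higher and 51.9% lower. Of the 51 probe sets called higher over the 3 pairs 41 were also higher under acolbifene and 17 were called higher, and of the 35 called lower 27 were lower and 11 were called lower. The 1 probe set called the opposite way was of Plod2, higher over the 3 pairs and lower under acolbifene (-0.36). Acot1 (1.47), Krt4 (1.08), Pgr (1.01), F3 (0.75), Aqp5 (0.70) and Rnf208 (0.36) were the 6 of the 14 leading rises called there. The second Krt4 probe set was not called under acolbifene (0.40). Slc7a2, Tmprss2, Fgfr2 and Smim3 were the 4 of the 14 leading falls called there, with differences between -0.72 and -0.42. Errfi1 (-0.08), Zmiz1 (0.02), Jdp2 (0.07) and Adamts1 (-0.26), all called over the 3 pairs, were not called under acolbifene, and Errfi1 already stood at 10.46 and 10.40 in the acolbifene arrays against 9.55 and 9.63 in the vehicle arrays. Differences between the acolbifene result and the 3 pairs were not tested.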

How the data were processed

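Expression was measured on Affymetrix arrays. The values the authors deposited are log2 levels; the submitters' processing notes name RMA, without a version. RMA subtracts background, equalises distributions between arrays and summarises probes, which compresses weak signals. The design text names Murine U74Av2 arrays, but the 45101 probe sets carry identifiers of the Mouse Genome 430 2.0 design. After 64 controls were left out, 45037 remained: 34945 with 1 gene symbol, 932 with several and 9160 unnamed here, together 18193 genes.

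Tests used limma 3.58.1 in R 4.3.3 with Benjamini-Hochberg adjustment over 45037 probe sets. The 3 pairs were fitted with compound as a block on 6 arrays (2 residual degrees of freedom, prior 11.1). Single compounds and departures came from a group-means fit to 14 arrays that included the code of the raw files (3 residual degrees of freedom), where an unreplicated array is assumed to vary like replicated ones. The E2-alone arrays differ in code, so they add nothing to the spread of that fit. Acolbifene and E2 against vehicle came from 8 arrays with no other term. Scripts were tested on simulated data. The small number of arrays limits precision. For the 3 pairs p-values measure how the E2 difference varies between compounds, in which differences between compounds and between pools are mixed. In the fits of 14 and 8 arrays they measure the spread between arrays of a group, which may be technical.

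The comparison, lists and members were chosen with earlier results of these data known. Genes named were the 14 higher and 14 lower with the largest smallest difference among the 3 pairs (one symbol, same sign, mean level at or above the 40th percentile, 6.66), any called gene, per compound up to 5 called departures each way, the 12 largest rises and falls of E2 against vehicle, and members of 31 lists. Lists were described by 1 probe set a gene, the brightest, for 502 of 538 listed genes measured. The alternatives tried are given with their effects in the closing section. Replicate numbers of acolbifene and E2+acolbifene arrays did not pair them (correlation of deviations 0.0908).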

Additional observations from a re-analysis of the deposited data

Results flagged for a closer look

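Differences between compounds in the E2 effect, each tested as a departure of one compound from the mean of the other two in the 14-array limma fit, passed for 14 probe sets for fulvestrant, 1 for raloxifene and 10 for tamoxifen. For fulvestrant the named genes were Krt77 (2.15), Krt10 (1.83) and Krtdap (1.55), higher with E2 than under the other compounds, and Myh1 (-3.26), Cthrc1 (-1.52), Slfn4 (-1.38) and Mmp12 (-1.28), lower. For raloxifene it was Krt4 (-1.91), whose second probe set (-1.21) did not pass. For tamoxifen they were Myh1 (2.36), higher, and Krtap8-1 (-2.12), Krt77 (-2.09), Krt10 (-2.03), Krtdap (-1.87) and Igkv15-103 (-1.65), lower. Each departure rests on 1 array with and 1 without E2 per compound. No group holds more than 2 arrays, so no array was judged against its own group.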

How the results depend on the processing

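For the 3 pairs, in which 0.191% of the tested probe sets were called (86), the share was 0.109% to 0.917% when one pair was left out (49 to 413 probe sets), 0.507% without dim probe sets (72 higher and 65 lower), 0.358% with an intensity trend (161), 0.0355% with quantile normalisation repeated (16) and 0.444% with the spread taken from the replicated groups (116 higher and 84 lower). Without the block, with arrays centred, or with markers of muscle, skin and lymphocytes left out, an alternative added after seeing the data, the count stayed within 1.5 times of 86. Of the 27 called genes among the 28 leading ones, 9 kept their call in all 9 alternatives (Krt4, Acot1, Aqp5, Errfi1, Cdk18, Jdp2, Mtmr7, Lratd1 and Fgfr2), 18 lost it with quantile normalisation repeated, 11 of them also without the tamoxifen pair, and 0 changed direction. With an intensity trend the counts were 727 for fulvestrant, 72 for raloxifene and 737 for tamoxifen, and 255, 627 and 444 for their departures. Without dim probe sets the fulvestrant count was 270 and the raloxifene departure count 4. Without the raw-file code the raloxifene count was 2, the fulvestrant departure count 7 and the raloxifene departure count 0. For acolbifene, 4142 became 38 to 969 when one array was left out, 648 in the fit with the replicate block, 1338 with 4 arrays only and 7219 with an intensity trend. The replicate numbers do not pair those arrays. The mean slope of the E2 responders, 35.4%, lay between 30.0% and 43.2% in the alternatives tried, of which leaving out markers and keeping bright responders were added after seeing the data. The causes of these changes were not tested. Signal near background limits the dim genes, Greb1 and Esr2 among them.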

Other observations

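Brown fat markers (10 genes, Ucp1 and Cidea among them) had a median difference of 0.69 under fulvestrant, -0.07 under raloxifene and 0.09 under tamoxifen, with 0 called over the 3 pairs. The interferon list (16 genes) had medians of -0.36, 0.15 and -0.21 in the same order, and the macrophage list -0.37, 0.14 and -0.19, so in both lists raloxifene stood on the opposite side of 0 from fulvestrant and tamoxifen. Cholesterol synthesis genes (18) had medians of 0.20, -0.15 and -0.31, with 0 called. Cell cycle genes (27) had medians of -0.16, 0.01 and -0.13, with 0 called. In all 3 pairs 8 of them were lower and 2 higher, against 10.3% and 11.4% of all genes. Mad2l1, a spindle checkpoint gene of that list, went the other way, with differences of 0.60, 0.15 and 1.17 (limma adjusted p = 0.15) beside 1.62 for E2 against vehicle.

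Over all 45037 probe sets the tamoxifen difference fell with level (r = -0.28 over probe sets), as did the acolbifene difference (r = -0.40), and those differences correlated at r = 0.42 although they share no array. The fulvestrant and raloxifene differences correlated with level at 0.08 and 0.10 and with each other at -0.0035. These correlations are across probe sets, which are not independent replicates.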
